A study of Mus musculus with 70 samples.

Results

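The CD45- bulk cells of the mouse brain were compared between postnatal day 15 (P15) and 8 weeks of age by small RNA sequencing. The comparison used 24 of the 70 libraries of the series, which were selected by age and cell fraction in their titles. They were 12 bulk libraries of 8-week-old mice and 12 bulk libraries of P15 mice, with 6 females and 6 males at each age and 1 mouse behind each library. All mice were WT of the strain C57BL/6. Each whole brain was cleared of meninges and blood clots and digested with papain, and the suspension was incubated on a dish coated with an antibody against CD45, a surface protein of leukocytes and microglia. Cells that stayed unbound were collected as the bulk population, while the bound cells of the same 24 brains (microglia) and the bulk cells of 10 mice at postnatal day 6 (P6) were used as points of reference.

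The bulk population is a mixture of every brain cell that CD45 did not retain, so a higher or lower level in it can come from more or fewer cells of a type or from more or less RNA per cell, and the data cannot tell these apart. The fraction was checked against miRNAs that mark cell types. The neuronal miR-124-3p lay between 54597 and 190709 normalised CPM (counts scaled to a common library total with TMM factors) in the 24 bulk libraries, and the oligodendrocyte miR-219a-2-3p lay between 4047 and 10560. The endothelial miR-126a-3p lay between 13457 and 32466. Of the markers of CD45+ myeloid cells, miR-223-3p lay between 9.54 and 24 normalised CPM in bulk cells against means of 2215 and 2585 in the microglia of P15 and 8-week mice. miR-142a-3p, which marks blood-derived lineages, lay between 163 and 381 in bulk cells against means of 18992 and 15476 in microglia. These markers were low but present, and the summed level of the 10 myeloid miRNAs tested had the range 487 to 754 at P15 and 403 to 833 at 8 weeks.

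miRNAs are short RNAs that are cut from hairpin precursors and guide repression of mRNAs, which they recognise mainly through the seed, bases 2 to 8 from their 5′ end. miRNAs that share a seed can bind the same sites, and miRNAs cut from 1 primary transcript form a cluster and are often made together. From the end of the second postnatal week to adulthood the brain completes most of its myelination, refines its synapses and loses most of its dividing progenitors, and several miRNA families are known to accompany these steps. The miR-29 family is known as a brake on extracellular matrix and DNA methylation enzymes and as a marker of neuronal maturation, the miR-132/212 pair as a product of neuronal activity, and the miR-17-92 cluster as a promoter of proliferation.

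The families on which most of the results turn are shown first, by their shared seeds. The sequences are mature miRNAs from RefSeq (GRCm38.p6), written 5′ to 3′ with the seed in capitals. The 3 members of the miR-29 family have the same seed and differ only outside it:
miR-29a-3p: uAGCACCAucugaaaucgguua
miR-29b-3p: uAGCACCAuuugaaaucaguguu
miR-29c-3p: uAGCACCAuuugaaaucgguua
All 3 were higher at 8 weeks. The activity-linked pair and the neighbours miR-221 and miR-222 also have 1 seed per pair, and both pairs were higher at 8 weeks:
miR-132-3p: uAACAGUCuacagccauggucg
miR-212-3p: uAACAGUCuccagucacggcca
miR-221-3p: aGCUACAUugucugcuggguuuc
miR-222-3p: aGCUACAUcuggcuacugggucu
The following members of the miR-17-92 cluster and of the miR-130 and miR-301 family were lower at 8 weeks, while 4 of the 6 tested miRNAs with the seed of miR-17-5p did not pass the test:
miR-17-5p: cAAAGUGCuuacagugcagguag
miR-20a-5p: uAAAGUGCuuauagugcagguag
miR-18a-5p: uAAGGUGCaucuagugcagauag
miR-130a-3p: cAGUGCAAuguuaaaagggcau
miR-130b-3p: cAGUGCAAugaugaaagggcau
miR-301a-3p: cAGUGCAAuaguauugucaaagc
1 seed was shared by a miRNA that was higher and a miRNA that was lower at 8 weeks. miR-34b-5p and miR-449c-5p (not shown) have the same seed and passed the test in neither direction:
miR-34a-5p: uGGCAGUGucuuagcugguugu
miR-449a-5p: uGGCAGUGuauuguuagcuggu
miR-34b-5p: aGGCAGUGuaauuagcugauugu
Members of a family that differ by few bases can share reads in the counts, so their single values are less certain than the family as a whole.

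Of 1072 features tested, 65 were higher and 53 lower at 8 weeks than at P15 (limma-voom and TREAT, a test of changes beyond a log2 fold change of 1 in either direction, at an FDR of 0.05), which is 11.0% of all features in either direction, 6.06% higher and 4.94% lower. The median log2 fold change of all features was 0.24, so that a feature at 0 lay slightly below the middle of the distribution. The 12 and 12 libraries did not overlap for 191 features (17.8%), of which 121 were higher (11.3%) and 70 lower (6.53%) at 8 weeks. Of the calls, 61 of the higher and 44 of the lower ones were without overlap. Values after ± are the SE of the fit for log2 fold changes and the SD over mice for levels. The balance of the directions depended on the scaling: with DESeq2 size factors 54 features were higher and 66 lower, and with library size alone 30 were higher and 105 lower, as the median of all features moved by -0.47 on the log2 scale. The TMM factors lay between 0.906 and 1.40 at P15 and between 0.749 and 0.983 at 8 weeks, and the 10 most abundant features took 60.7% ± 1.96 (SD, n = 12) of the counts at P15 and 57.1% ± 1.71 (SD, n = 12) at 8 weeks.

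**Figure D1:**
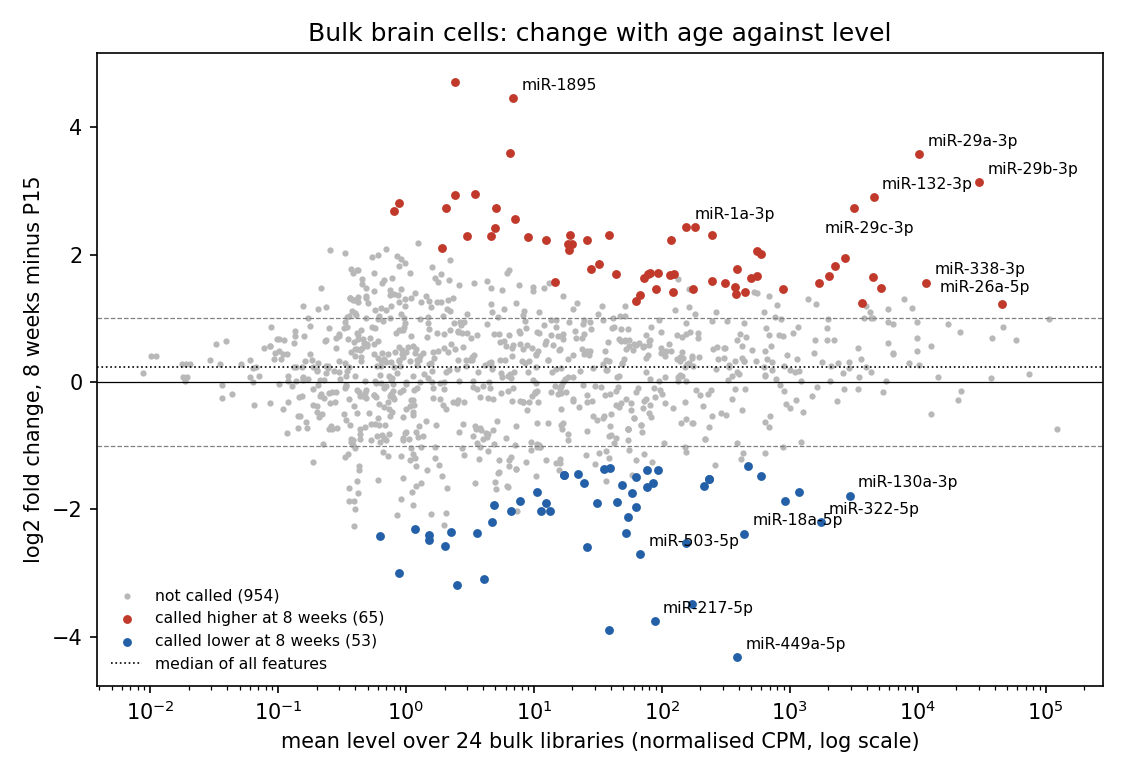
Each point is 1 of 1072 features, placed by its mean level over the 24 bulk libraries (normalised CPM, log scale) and by its log2 fold change between 8 weeks and P15, with calls in red and blue and dashed lines at a log2 fold change of 1 in either direction. Calls lay at mean levels from 0.631 to 45361 CPM, and the miR-29 members combined a high level with a large rise, while miR-449a-5p had the largest fall.

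Depth was similar at both ages. Total counts ranged from 2795957 to 6763115 in the P15 libraries and from 3141193 to 6447373 in the 8-week libraries, so that 3 counts, taken as the floor of detection, corresponded to between 0.422 and 0.766 CPM and between 0.597 and 0.972 CPM (counting error only). In multidimensional scaling the first dimension, with 28.1% of the variance, placed the 8-week libraries between -0.822 and -0.681 and the P15 libraries between 0.524 and 1.02. The bulk libraries of P15 F1, F2, F3 and M1 stood apart from the other P15 libraries by red cell miR-451a, at 6254 to 9001 normalised CPM against 2142 to 3568, and without these mice 58 features were higher and 39 lower. The bulk libraries of P15 F6, M1, M3 and M6 and of 8-week M2 held more than 100 normalised CPM of miR-200a-3p, an epithelial and olfactory miRNA, and without these mice 56 features were higher and 46 lower.

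miR-29a-3p and miR-29b-3p had the largest rises among the 10 most abundant calls. miR-29a-3p lay between 1232 and 2153 normalised CPM at P15 with a median of 1503, and between 15207 and 25301 at 8 weeks with a median of 18967. The lowest 8-week library was far above the highest P15 library, and the log2 fold change was 3.58 ± 0.10 (adjusted p = 1.7e-33), or 11.9-fold. miR-29b-3p went from 4280, 6383 and 7481 (lowest, median and highest) to 41531, 53924 and 67678 at 8 weeks, with a log2 fold change of 3.14 ± 0.12 (adjusted p = 2.97e-25). Its 8-week mean of 53941 had been 1323 ± 237 at P6 (n = 10). miR-29c-3p went from 658, 797 and 1075 to 4625, 5531 and 6606, with a log2 fold change of 2.73 ± 0.08 (adjusted p = 3.4e-29). All 7 measured arms of the family rose, 7 of 7 against a background of 11.0%, with a median log2 fold change of 2.43. Their summed level had the range 6309 to 10554 at P15 and 64569 to 100391 at 8 weeks.

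The family comes from a pair of clusters. Mir29a and Mir29b-1 lie on the minus strand at chr6:31062660-31063093, and Mir29b-2 and Mir29c on the plus strand at chr1:195037040-195037634, inside exons of the noncoding transcript A330023F24Rik (GRCm38, GENCODE M21). All arms tested from each cluster rose, but miR-29b-3p is 1 sequence with a locus in both, so its value cannot be assigned to either. The passenger arms followed at lower levels: miR-29a-5p went from a mean of 56.4 ± 6.71 to 307 ± 55.3 (SD, n = 12 each), and miR-29c-5p from 41.3 ± 5.30 to 193 ± 23.8. The smallest rise was that of miR-29b-2-5p (1.36 ± 0.12, adjusted p = 0.0185), and this call was lost in 16 of 39 alternative settings, with values between 0.89 and 1.47.

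**Figure D2:**
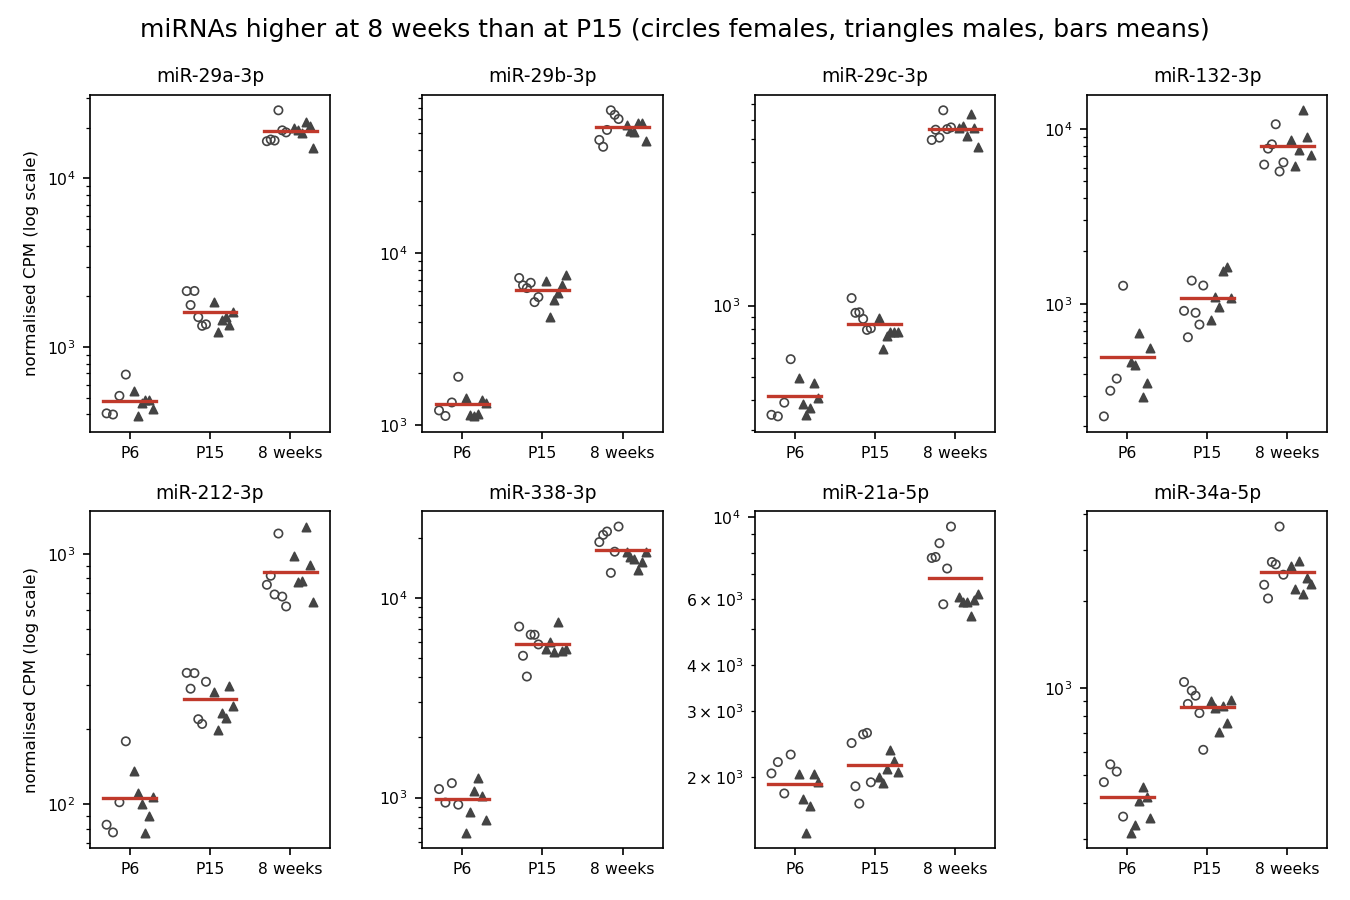
Levels of 8 miRNAs in each bulk library at P6, P15 and 8 weeks (normalised CPM, log scale), with open circles for females, filled triangles for males and a bar at the group mean. In every panel all 12 of the 8-week libraries lie above all 12 of the P15 libraries, and miR-21a-5p has similar means at P6 (1915) and P15 (2154).

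miRNAs linked to neuronal activity were the next large group. miR-132-3p, which promotes dendrite growth and is transcribed through CREB, lay between 645 and 1623 normalised CPM at P15 with a median of 1015. At 8 weeks it lay between 5702 and 12740 with a median of 7614. The groups were well separated, with a log2 fold change of 2.90 ± 0.19 (adjusted p = 3.96e-13). miR-212-3p, from the same primary transcript, lay between 198 and 335 at P15 and between 618 and 1289 at 8 weeks (1.66 ± 0.13, adjusted p = 1.83e-05), and this call was lost with library size alone. Their precursors lie at chr11:75173388-75173747 in an intron of the noncoding transcript 1700016P03Rik, and all 3 arms tested from this cluster rose. The remaining members of the list were both arms of miR-134, a dendritic miRNA, which did not pass the test (-0.32 and -0.19). Thus 3 of 5 members rose, against 6.06% of all features. The list median was 1.66 in bulk cells and 1.24 in microglia.

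Among neuron-enriched miRNAs 3 of 19 rose and none fell (15.8%, against 11.0% of all features in either direction). The 3 were miR-129-1-3p (mean of 217 ± 53.7 at P15 and 885 ± 174 at 8 weeks, SD, n = 12 each), miR-129-2-3p (1003 ± 270 and 3474 ± 700) and miR-153-5p (7.07 ± 3.16 and 31.1 ± 5.86). Their log2 fold changes were 2.05, 1.82 and 2.30, and the call of miR-129-2-3p was lost with library size alone (1.35). The other arms of the miR-129-2 and miR-153 precursors, miR-129-5p (0.24) and miR-153-3p (1.0), did not pass the test. The list median was 0.85 against 0.24 for all features, and 14 members lay above 0. The median was 0.38 with library size alone, with 10 members above and 9 below 0. The most abundant members did not pass the test. miR-124-3p, which represses non-neuronal transcripts in neurons, had a log2 fold change of 0.99 ± 0.15, with 54597, 64035 and 131159 normalised CPM as the lowest, median and highest value at P15 and 104987, 132828 and 190709 at 8 weeks. P15 F3, one of the libraries with high miR-451a, was the only P15 library above the lowest 8-week value. miR-9-5p, expressed in neural progenitors as well as in neurons, had a log2 fold change of -0.75 ± 0.17, with 118904 to 224438 at P15 and 73808 to 106883 at 8 weeks, so the groups did not overlap although the change stayed under the threshold of the test.

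The oligodendrocyte list had 1 call in 6 (16.7%, against 11.0% of all features in either direction). miR-338-3p, which promotes oligodendrocyte differentiation and lies in an intron of Aatk at chr11:120014765-120014862, lay between 4041 and 7541 normalised CPM at P15 (median 5720) and between 13374 and 22824 at 8 weeks (median 16965). Its log2 fold change was 1.56 ± 0.11 (adjusted p = 1.44e-05), and the call was lost with library size alone (1.09). The other arm, miR-338-5p, had a log2 fold change of 1.22, miR-219a-5p of 1.0 and miR-219a-2-3p of 0.44 (-0.03 with library size alone), and none of them passed the test. The same miRNAs had changed more between P6 and P15: the log2 fold change of that earlier step, which shares the P15 libraries, was 2.58 for miR-338-3p, 3.34 for miR-219a-5p and 3.63 for miR-219a-2-3p. In the direct test of the late against the early step, miR-219a-5p (-2.34 ± 0.28, adjusted p = 0.000808) and miR-219a-2-3p (-3.19 ± 0.30, adjusted p = 2.07e-07) differed, and miR-338-3p did not pass (-1.02 ± 0.19, adjusted p = 1). The early step called 38 features (3.54%), with 20 higher (1.87%) and 18 lower (1.68%), and the test of the late against the early step called 27 (2.52%), with 11 more positive (1.03%) and 16 more negative (1.49%) in the late step.

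**Figure D3:**
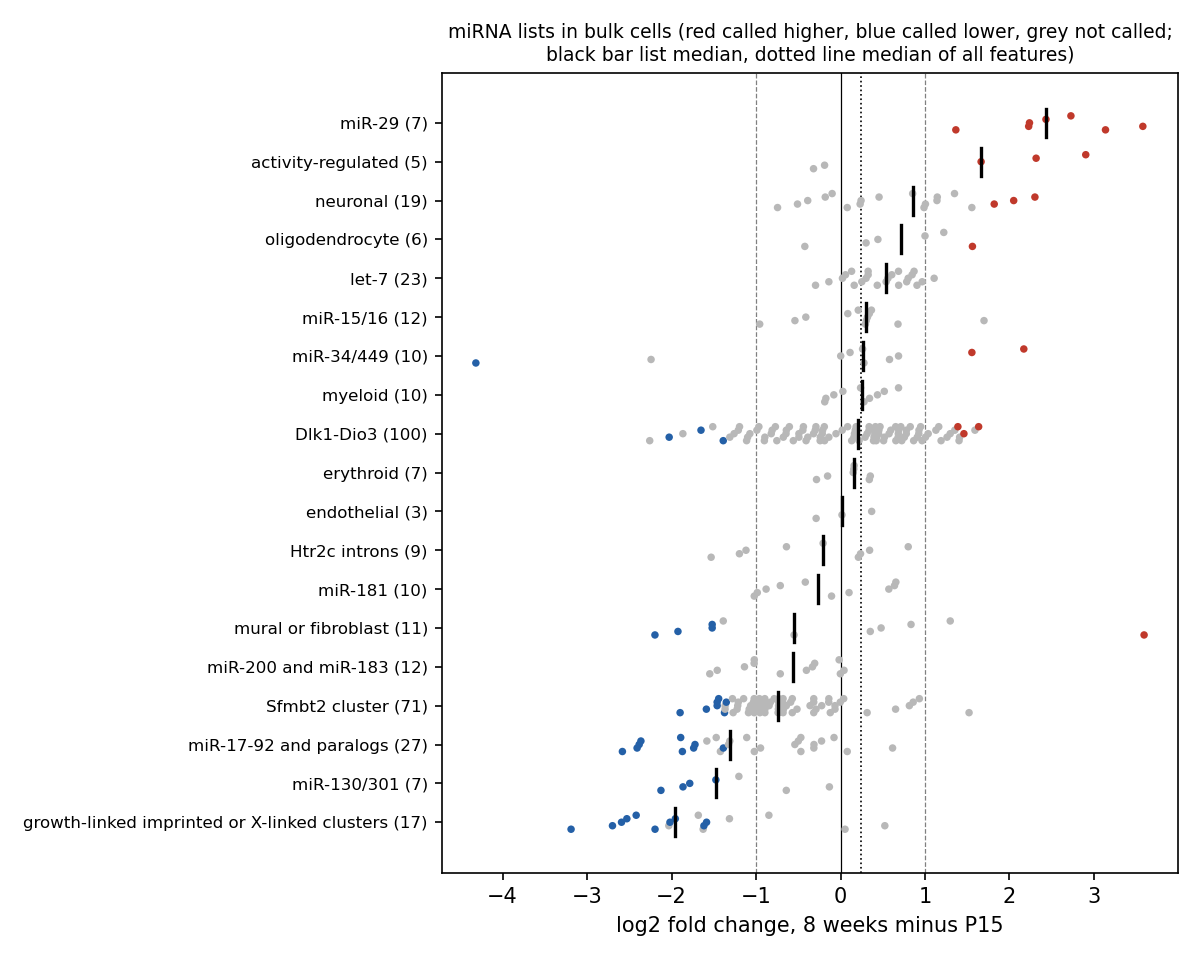
Log2 fold change between 8 weeks and P15 in bulk cells for every tested member of 19 miRNA lists, with the number tested in brackets, black bars at the list medians and a dotted line at the median of all features (0.24). The miR-29 list has all 7 members in red, and the 3 lowest lists are the miR-17-92, miR-130 and miR-301 and growth-linked clusters, with medians between -1.96 and -1.31.

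No member of the let-7 family passed the test. These miRNAs mark differentiated cells and together were among the most abundant of the bulk libraries. Of 23 members tested, 21 lay above 0 and the median was 0.54, or 0.07 with library size alone. let-7a-5p had 26026, 33205 and 39991 normalised CPM as the lowest, median and highest value at P15 and 49923, 59457 and 81990 at 8 weeks, so the groups did not overlap, with a log2 fold change of 0.87 ± 0.08. The largest value was that of let-7e-3p (1.11 ± 0.22, adjusted p = 1), whose groups overlapped.

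Among the 10 most abundant calls were several that are expressed in many brain cell types. miR-26a-5p, which comes from an intron of Ctdspl and a UTR of Ctdsp2, both phosphatase genes, lay between 22329 and 38894 normalised CPM at P15 and between 50546 and 73306 at 8 weeks. The groups did not overlap, yet the log2 fold change of 1.22 ± 0.07 (adjusted p = 0.02) was close to the threshold, and the call was lost in 16 of 39 alternative settings. miR-23b-3p (1.25 ± 0.08) lost its call in 18 of 39 settings. Its cluster neighbour miR-27b-3p rose from a mean of 2734 ± 416 to 7602 ± 1124 (SD, n = 12 each), and kept its call except with library size alone (1.48 ± 0.09, adjusted p = 7.38e-06, against 1.01). miR-21a-5p, known from glial reactions and proliferation, lay between 1693 and 2623 at P15 and between 5410 and 9408 at 8 weeks (1.65 ± 0.09, adjusted p = 4.45e-08), a call also lost with library size alone (1.18). The muscle miRNA miR-1a-3p, which is present at low levels in brain, went from 30.7, 47.7 and 63.8 to 177, 253 and 388 (2.43 ± 0.13, adjusted p = 4e-14).

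3 of the largest rises belonged to miRNAs that were near the floor at P15. miR-1895 lay between 0 and 4.21 normalised CPM at P15 (median 0.446) and between 6.38 and 17.2 at 8 weeks (4.46 ± 0.49, adjusted p = 3.8e-08). It was more abundant in the microglia of the same brains, at means of 31.3 and 132. miR-145b lay between 0 and 1.80 at P15 and between 8.42 and 18.5 at 8 weeks (3.59 ± 0.39, adjusted p = 1.37e-07), and the candidate chr18_22626 between 0 and 5.10 and between 8.42 and 16.4 (2.56 ± 0.35, adjusted p = 0.000244). The pair miR-221-3p and miR-222-3p, from 1 cluster at chrX:19146294-19146971, was chosen after its values were seen. miR-221-3p went from 43.3 ± 9.69 to 144 ± 39.4 and miR-222-3p from 173 ± 29.8 to 601 ± 167 normalised CPM (mean ± SD, n = 12), with log2 fold changes of 1.72 and 1.77. miR-221-3p had a log2 fold change of 0.02 between P6 and P15, and its late step differed from the early one (1.69 ± 0.21, adjusted p = 0.0409). With library size alone miR-221-3p lost its age call (1.25, adjusted p = 0.102), and no feature was called more positive in the late than in the early step.

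The largest fall was that of miR-449a-5p, a miRNA of multiciliated cells that is cut from an intron of Cdc20b at chr13:113037534-113037624. It lay between 338 and 1060 normalised CPM at P15 with a median of 701, and between 27.4 and 45.1 at 8 weeks with a median of 35.6. No 8-week library came near the lowest P15 library, and the level fell by 4.32 on the log2 scale (SE 0.28, adjusted p = 6.27e-16), or 19.9-fold. At P6 it had been at 2693 ± 1046 (SD, n = 10), and it was lower at P15 by -1.88 ± 0.23 on the log2 scale (adjusted p = 0.00457). The late step was larger than the early one (-2.44 ± 0.43, adjusted p = 0.0318).

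Most other miRNAs of ciliated cells had other values. Of the 10 tested members of this list, 8 lay above 0, and the 2 below 0 were miR-449a-5p and miR-449c-5p. miR-449c-5p did not pass the test. In the fit of the bulk libraries alone, and also with library size alone, 2 members of the list were called lower. miR-34b-5p lay between 265 and 901 normalised CPM at P15 and between 413 and 976 at 8 weeks, and miR-34c-5p between 108 and 548 and between 247 and 572, with log2 fold changes of 0.11 ± 0.17 and 0.26 ± 0.19 and overlapping groups. With library size alone both were below 0 (-0.36 and -0.22) and did not pass the test either. miR-34a-5p, which shares the seed but is widely expressed as a p53 target, rose from 610, 873 and 1049 to 2043, 2436 and 3626 (1.55 ± 0.10, adjusted p = 2.81e-06, and 1.08 without a call with library size alone). Its passenger arm miR-34a-3p rose from 7.44 ± 2.87 to 32.6 ± 6.70 (SD, n = 12 each). miR-449a-5p and miR-34a-5p had means of 738 and 856 at P15, and of 35.5 and 2520 at 8 weeks.

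The next largest falls were the neighbours miR-216a, miR-216b and miR-217, which are best known from the exocrine pancreas. miR-217-5p lay between 79.6 and 351 normalised CPM at P15 (median 138) and between 4.62 and 17.1 at 8 weeks (median 11.5), with a log2 fold change of -3.76 ± 0.59 (adjusted p = 0.000146). miR-216a-5p lay between 162 and 567 and between 18.1 and 31.9 (-3.49 ± 0.49, adjusted p = 3.7e-05), and miR-216b-5p between 39.8 and 135 and between 1.22 and 7.19 (-3.89 ± 0.71, adjusted p = 0.000913). No P15 library reached the range of the 8-week libraries for any of the 3. Mir216a and Mir217 lie at chr11:28757012-28763835 and all 4 of their arms fell. Mir216b lies upstream, at chr11:28746191-28746276. In the microglia of the same brains the log2 fold changes were of similar size (-4.36, -3.45 and -4.01 in the order given), and the difference between the fractions passed the test for none of the 3 (adjusted p = 1 each).

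Clusters linked to growth fell together. The miR-322 and miR-503 cluster of the X chromosome, at chrX:53047997-53054349, makes miRNAs that slow the cell cycle, and 7 of the 11 arms tested from it fell while none rose. miR-322-5p, its most abundant member, lay between 2271 and 3735 normalised CPM at P15 (median 2715) and between 475 and 695 at 8 weeks (median 658), with a log2 fold change of -2.20 ± 0.10 (adjusted p = 1.22e-16). miR-503-5p lay between 69.2 and 231 and between 8.90 and 26.8 (-2.70 ± 0.16, adjusted p = 5.71e-14). miR-542-3p went from a mean of 44.6 ± 12.9 to 7.44 ± 2.54 (SD, n = 12 each, -2.59 on the log2 scale), and the neighbouring miR-351-5p from 263 ± 75.0 to 44.7 ± 8.63 (-2.53). In none of these 4 did the groups overlap. miR-483-3p, from an intron of the fetal growth factor gene Igf2, fell from 4.48 ± 1.32 to 0.549 ± 0.494 (-3.19 ± 0.39, adjusted p = 5.78e-06), a level below the floor at 8 weeks. Both arms of miR-335, from the imprinted gene Mest, did not pass the test (0.05 and 0.52). Over the whole list 10 of 17 members fell (58.8%, against 11.0% of all features in either direction), and the median was -1.96.

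Of miR-322-5p, miR-503-5p, miR-542-3p and miR-351-5p, 3 changed more in the late step than in the early one. miR-322-5p had a log2 fold change of -0.26 ± 0.10 between P6 and P15, with 3389 ± 353 at P6 (SD, n = 10), and the late step differed from the early one by -1.94 ± 0.17 (adjusted p = 3.91e-05). The same test gave -1.94 ± 0.25 for miR-542-3p (adjusted p = 0.0108) and -1.86 ± 0.23 for miR-351-5p (adjusted p = 0.0108), while miR-503-5p did not pass it (-1.53 ± 0.24, adjusted p = 0.234).

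**Figure D4:**
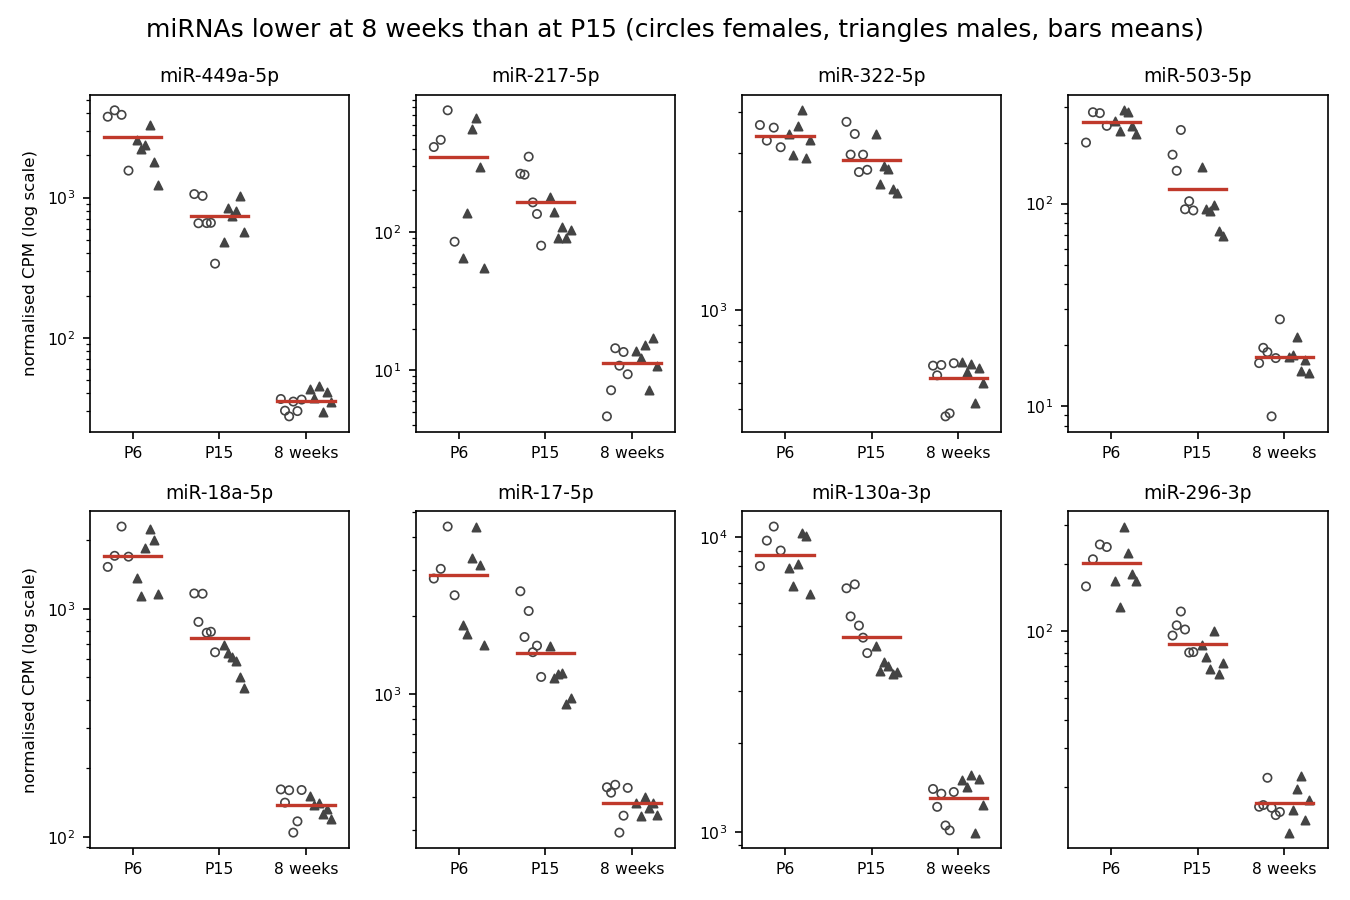
Levels of 8 miRNAs in each bulk library at P6, P15 and 8 weeks (normalised CPM, log scale), with open circles for females, filled triangles for males and a bar at the group mean. In every panel all 12 of the 8-week libraries lie below all 12 of the P15 libraries, and miR-322-5p has a mean of 3389 at P6 against 2858 at P15.

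The miR-17-92 cluster, exons of the noncoding host Mir17hg at chr14:115043671-115044506, was mostly lower at 8 weeks. Of its 11 arms tested 7 fell. miR-18a-5p lay between 447 and 1166 normalised CPM at P15 (median 669) and between 105 and 162 at 8 weeks (median 139), with a log2 fold change of -2.38 ± 0.12 (adjusted p = 9.75e-16). miR-17-5p lay between 915 and 2482 and between 292 and 447 (-1.87 ± 0.13, adjusted p = 1.73e-07), and miR-20a-5p between 1122 and 3091 and between 412 and 663 (-1.72 ± 0.14, adjusted p = 1.98e-05). Groups did not overlap in any of the 3. The last members of the cluster were closer to 0: miR-19b-3p had a log2 fold change of -1.11 and miR-92a-3p of -0.95, and neither passed the test. With the paralogous clusters, 9 of 27 members fell (33.3%, against 11.0% of all features in either direction) and the median was -1.31. The count was 16 with library size alone. In the miR-106b/93/25 cluster, an intronic paralog, no arm passed the test, and its values lay between -1.02 and -0.32.

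The miR-130 and miR-301 family fell at 4 of 7 members, against 4.94% of all features, and at 3 without P15 F1, F2, F3 and M1. miR-130a-3p, the only fall among the 10 most abundant calls, lay between 3436 and 6921 normalised CPM at P15 (median 4159) and between 994 and 1563 at 8 weeks (median 1356), with a log2 fold change of -1.79 ± 0.16 (adjusted p = 4.36e-05). miR-301a-3p, from an intron of Ska2, fell from 874 ± 194 to 308 ± 26.2 (SD, n = 12 each), and miR-130b-3p from 88.7 ± 25.2 to 19.7 ± 3.40. The list median was -1.48. miR-130b-3p had fallen by a like amount in the step from P6 to P15, with a log2 fold change of -1.87 ± 0.12 against -2.13 ± 0.15 in the late step. From the imprinted Gnas region, miR-296-3p fell from 64.0, 83.7 and 123 to 12.5, 16.2 and 22.3 (-2.37 ± 0.16, adjusted p = 2.27e-10), and its cluster neighbour miR-298-5p from 322 ± 45.7 to 103 ± 9.69 (-1.63 ± 0.10, adjusted p = 2.78e-07).

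The large imprinted Dlk1-Dio3 region of chromosome 12 had members in both directions. Of 100 arms tested, 3 rose and 3 fell (against 11.0% of all features in either direction), and the median was 0.20. These counts depended on the scaling and the mice: with library size alone 0 rose and 10 fell, with a median of -0.27, with DESeq2 size factors 1 rose and 5 fell, and without P15 F1, F2, F3 and M1, as without the mice with high miR-200a-3p, 1 rose and 2 fell. The rises were miR-376b-5p (242 ± 39.5 to 748 ± 111 normalised CPM, SD, n = 12 each), miR-495-3p (93.6 ± 21.2 to 258 ± 65.6) and miR-136-3p (207 ± 23.1 to 549 ± 114). The falls were miR-1188-5p (21.5 ± 6.50 to 5.22 ± 1.43), miR-412-5p (116 ± 21.5 to 36.7 ± 7.0) and miR-544-3p (134 ± 28.0 to 50.6 ± 8.0). The groups did not overlap in any of the 6. miR-136-3p, miR-495-3p and miR-544-3p lost their calls in 26, 20 and 17 of 39 alternative settings, and miR-376b-5p lost its call with library size alone (1.16, adjusted p = 0.543). The most abundant arms of the region, miR-127-3p with means of 5581 and 12434 and miR-136-5p with means of 4473 and 11221, had log2 fold changes of 1.16 and 1.30 and did not pass. For miR-1188-5p (-2.58 ± 0.39, adjusted p = 0.00564) and miR-412-5p (-1.97 ± 0.27, adjusted p = 0.0182) the late step differed from the early step.

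Most of the remaining lists held few calls or none. The exception was the list of mural cells and fibroblasts, with 45.5% of members called, against 11.0% of all features. Members of the rodent Sfmbt2 cluster are near-identical and can share reads. Of 71 tested, 7 fell (9.86%, against 4.94% of all features lower and 11.0% in either direction). The median was -0.74, and 64 members lay below 0. With library size alone 21 fell, without P15 F1, F2, F3 and M1 2 fell, and without the mice with high miR-200a-3p 4 fell. miR-669b-5p fell from 128 ± 22.9 to 42.5 ± 6.91 and miR-297a-5p from 49.3 ± 16 to 12.7 ± 2.99 normalised CPM (SD, n = 12 each). Among markers of mural cells and fibroblasts 4 of 11 fell (against 4.94% of all features) and 1 rose, and the number that fell was 5 with either other scaling and 3 without P15 F1, F2, F3 and M1. The falls were miR-214-3p, miR-199b-5p and the 3p arms of miR-199a and miR-199b, which are 1 sequence and in effect 1 measurement (348 ± 74.8 to 119 ± 11.3), and the rise was miR-145b. The call of miR-214-3p was lost without 8-week F1 (adjusted p = 0.0675), without 8-week F4 (adjusted p = 0.0515) and without P15 F1, F2, F3 and M1 (adjusted p = 0.0884). The most abundant mural marker, miR-143-3p, had a log2 fold change of 0.48 and did not pass the test. No member passed the test in the miR-15/16 (12 tested), miR-181 (10), miR-200 and miR-183 (12), Htr2c intron (9), myeloid (10), erythroid (7) and endothelial (3) lists, whose medians lay between -0.56 and 0.30. Of these medians only that of miR-181 had 1 sign under both other scalings, in the bulk libraries alone and without either set of mice that stood apart. That of miR-200 and miR-183 was 0.13 without the 5 mice with high miR-200a-3p, and that of the Htr2c introns was 0.29 without P15 F1, F2, F3 and M1, where 1 member of the miR-15/16 list was called higher. With library size alone 1 member of the miR-15/16 list and 1 of the miR-181 list were called lower.

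Of 53 unannotated candidates tested, 5 rose and 2 fell, against 11.0% of all features called in either direction. The rises of chr6_38325 and chr7_41362 were lost with library size alone (adjusted p = 0.0648 and 0.0599). chr6_38156 was the most abundant, with 760, 1124 and 1440 normalised CPM at P15 and 3562, 4292 and 4942 at 8 weeks (1.95 ± 0.12, adjusted p = 9.61e-10). chr10_4182 lay between 0 and 0.562 at P15, where no library had more than 4 counts, and between 0.828 and 8.18 at 8 weeks. chr14_14675 fell from 95.0 ± 42.5 to 31.5 ± 7.51 (SD, n = 12 each), and this call was lost without any of 8-week F4, F5, M3 or M6 or of P15 F1 or M1 (adjusted p between 0.0531 and 0.124) and without the 4 P15 mice with high miR-451a (adjusted p = 0.364).

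The arms of each precursor were then compared. For 279 precursors both arms were tested. In 19 of them both arms were called in the same direction and in none in opposite directions. In 39 only 1 arm was called, and the other arm had the same sign in 37 of these. The share with the same sign over all 279 was not taken. Some miRNAs with several precursors, such as miR-26a-5p, were counted more than once. Mature sequences were matched to 93 of the 111 annotated calls.

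Within the sexes, 54 features were higher (5.04%) and 51 lower (4.76%) in females, 9.79% in all, and 41 were higher (3.82%) and 18 lower (1.68%) in males, 5.50% in all. The difference between the sexes passed the test for 0 features (0%), with 8 at an unadjusted p under 0.05, and for 4 and 1 when the test was made without the fold change threshold (limma in each case). The 3 lowest p-values belonged to miRNAs of low level. miR-6402 had a log2 fold change of 3.95 ± 0.49 in females and 1.41 ± 0.46 in males (adjusted p of the difference = 1), with at most 2.92 normalised CPM in any bulk library of these ages. miR-3064-3p had 0.72 ± 0.62 and -2.07 ± 0.58, and the candidate chr17_20934 had -3.78 ± 0.57 and -1.17 ± 0.58 (adjusted p = 1 for both). Among the P15 libraries with high miR-451a 3 were female, and without them and M1 the number of features lower in females was 32.

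The changes in bulk cells were then set against those in the CD45+ microglia of the same brains. In microglia 19 features were higher (1.77%) and 30 lower (2.80%) at 8 weeks, 4.57% in all. Of the 118 features called in bulk cells, 106 had the same sign in microglia, against 61.7% of all features. In microglia 26 of the 118 were called in the same direction and 0 in the opposite one. The direct test of the difference called 36 features (3.36%), of which 20 changed more positively (1.87%) and 16 more negatively (1.49%) in bulk cells. miR-29a-3p rose by 1.57 on the log2 scale in microglia (adjusted p = 1.37e-06), where miR-29b-3p had a value of 1.23 and did not pass the test (adjusted p = 0.304), and the changes of both were greater in bulk cells by 2.01 ± 0.13 (adjusted p = 2.42e-09) and 1.91 ± 0.15 (adjusted p = 4.24e-06). The levels of the fractions were closer at 8 weeks than at P15, as miR-29a-3p had a mean of 14329 in P15 microglia against 1607 in P15 bulk cells, and 42316 against 19021 at 8 weeks. miR-29c-3p did not pass this test (0.86 ± 0.11, adjusted p = 1). miR-132-5p rose in microglia too, by 2.34 on the log2 scale (adjusted p = 0.00746). miR-132-3p had a value of 1.48 there and did not pass (adjusted p = 0.185). The difference between the fractions passed the test for neither arm (-0.03 for miR-132-5p, and 1.43 ± 0.26 with adjusted p = 0.627 for miR-132-3p).

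miR-21a-5p and miR-34a-5p also differed between the fractions. miR-21a-5p had a log2 fold change of -0.23 ± 0.09 in microglia, where its means were 10868 and 9280, and the difference was 1.88 ± 0.12 (adjusted p = 4.08e-08). miR-34a-5p had -0.65 ± 0.09 in microglia, with means of 3311 and 2082, and the difference was 2.21 ± 0.12 (adjusted p = 5.51e-12). Among miRNAs that were not called in bulk cells, miR-2137 (1.19 in bulk cells and -2.62 in microglia), miR-5121 (1.48 and -1.99), miR-3473b (-0.32 and -3.33) and miR-499-5p (0.90 and -1.32) were the most positive, while miR-10a-5p (-1.29 and 1.68) and miR-155-5p (-1.22 and 1.02) were among the most negative. miR-155-5p, an inflammatory miRNA, lay between 68.8 and 128 normalised CPM in P15 bulk cells and between 27.5 and 50.6 at 8 weeks, without overlap. It was called lower in bulk cells in 6 alternative settings that kept the fold change threshold (adjusted p between 0.000166 and 0.0475), among them both other scalings and the fit of the bulk libraries alone. miR-5121 was called higher in bulk cells with edgeR's glmTreat, which kept the fold change threshold (1.45, adjusted p = 0.0134). miR-10a-5p, from the Hox clusters, lay between 12.6 and 55.3 and between 6.37 and 88.3, and its median was 40.0 at P15 and 13.7 at 8 weeks.

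The falls of the growth-linked clusters were different in size in the 2 fractions. miR-322-5p had means of 8738 and 8915 in microglia (0.02 ± 0.09, SE), and the difference from bulk cells was -2.22 ± 0.12 (adjusted p = 4.25e-12). For miR-503-5p the difference was -2.16 ± 0.19 (adjusted p = 2.61e-06), for miR-542-3p -2.08 ± 0.20 (adjusted p = 2.72e-05) and for miR-351-5p -1.69 ± 0.17 (adjusted p = 0.00408). miR-17-5p, with -0.26 in microglia, differed by -1.61 ± 0.17 (adjusted p = 0.00957) and miR-17-3p by -1.80 ± 0.15 (adjusted p = 4.83e-05), but miR-18a-5p did not pass the test (-1.22 ± 0.15, adjusted p = 0.734). miR-130b-3p and miR-301a-3p were lower at 8 weeks in both fractions, by -2.71 and -1.70 in microglia, and did not differ in this test (adjusted p = 1 for both). miR-449a-5p and miR-296-3p were lower in microglia too (-2.81 and -2.33).

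**Figure D5:**
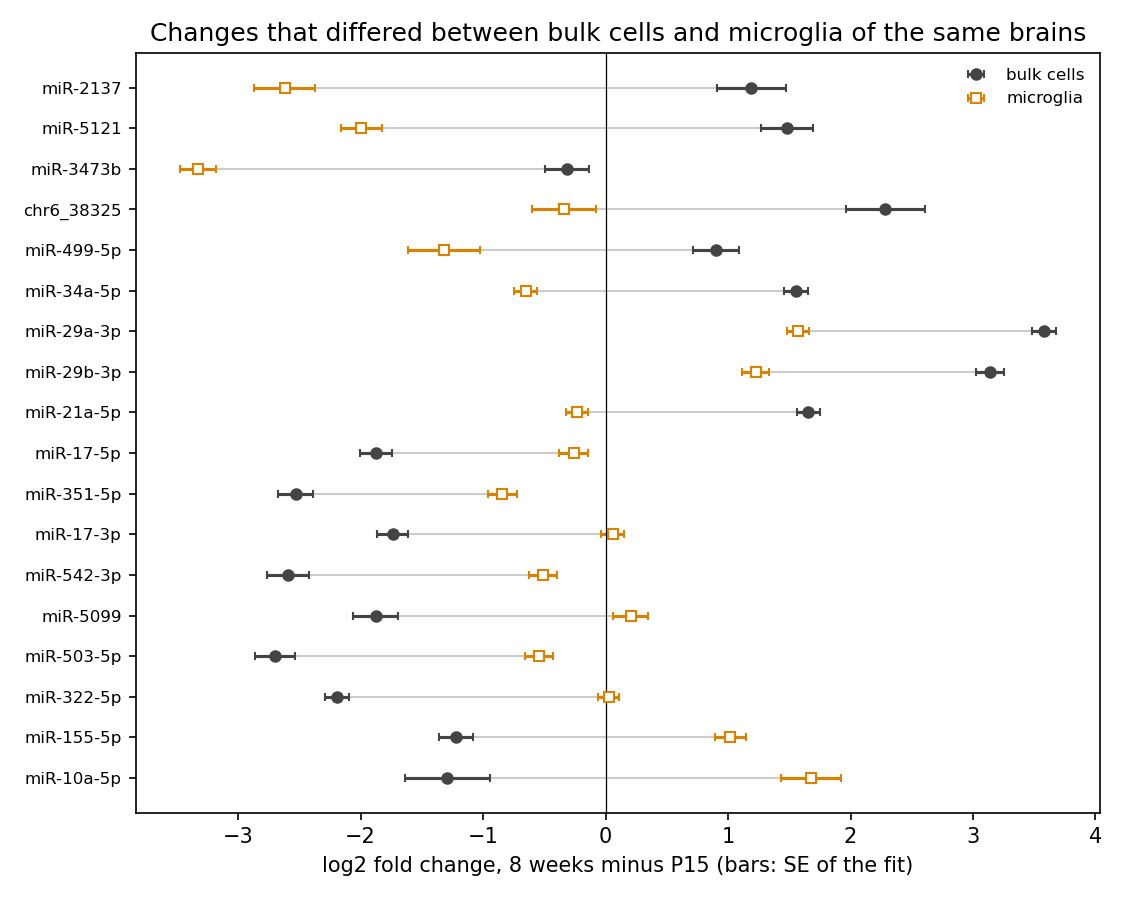
Log2 fold change between 8 weeks and P15 in bulk cells (filled circles) and in microglia of the same brains (open squares) for 18 features whose changes differed between the fractions, with bars for the SE of the fit. miR-2137 is at the top with the largest positive difference (3.81) and miR-10a-5p at the bottom with the most negative one (-2.97), while miR-322-5p is near 0 in microglia.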

How the data were processed

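The values analysed were raw read counts of mature miRNAs, deposited as whole numbers without normalisation by the authors. By the study's methods, the authors trimmed adapters with fastp 0.20.0, mapped reads to mature miRNAs of miRBase and the rest to GRCm38 with miRDeep2, and kept its candidate miRNAs, which are named after chromosomes. For names listed more than once (79 of 1885) the entry with the largest total was kept. The fit held 68 libraries of 34 mice in 12 groups of age, sex and fraction, without P6 female 6, which is not listed in the study's source data. The 1072 features tested (53 of them candidates) reached 1 CPM or more in 5 or more libraries. Counts were scaled by TMM and fitted by voom in limma 3.58.1, under R 4.3.3 with edgeR 4.0.16, with mouse as a random effect (consensus correlation 0.124). Contrasts were averaged over the sexes and tested with TREAT against a log2 fold change of 1 at an FDR of 0.05 (Benjamini-Hochberg). Every adjusted p printed is from this limma test over all features unless named otherwise. Levels are CPM of the TMM-scaled library total. Positions and host genes are from GRCm38 (GENCODE M21).

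Numbers F1 to M6 name different mice at each age, and p-values measure the spread between mice. No libraries were identical, the closest pair of replicates having a chi-square divided by its degrees of freedom of 26.9. Reads carry no molecular identifiers, so that floors cover counting error only.

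Members, lists and rules were chosen with earlier results of these data known. Named features were the 10 largest changes in each direction among calls without overlap and with a mean of at least 10 CPM, the 10 most abundant calls, the largest and most abundant members of the lists, the 5 largest differences from microglia in each direction and the 3 lowest p of the sex difference. Other list members were named after their values were seen. The lists were the 19 plotted. Alternatives were other tests (moderated without threshold, edgeR glmTreat, DESeq2 1.42.0), scalings, filters, blocks, quality weights, summed entries, the 24 bulk libraries alone, P6 female 6 included and each of the 24 mice left out. The tests without the P15 mice high in miR-451a and without the mice high in miR-200a-3p were added after the data were seen. The scripts were tested on simulated counts.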

Additional observations from a re-analysis of the deposited data

Results flagged for a closer look

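The features in this section drew attention because a direct test showed that their change between P15 and 8 weeks was not the same in bulk cells as in microglia, or not the same as the step from P6 to P15. All values are differences of log2 fold changes in the limma fit with TREAT and an adjusted p under the threshold of 0.05. No explanation was tested.

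Relative to microglia of the same brains, the change in bulk cells was more positive for miR-2137 (3.81), miR-5121 (3.48), miR-3473b (3.01), the candidate chr6_38325 (2.62), miR-34a-3p (2.22), miR-499-5p (2.22), miR-34a-5p (2.21), miR-29b-1-5p (2.06), miR-29a-3p (2.01), miR-29b-3p (1.91), miR-1249-3p (1.91), miR-21a-5p (1.88) and the candidate chr6_38156 (1.57). It was more negative for miR-10a-5p (-2.97), miR-155-5p (-2.24), miR-322-5p (-2.22), miR-503-5p (-2.16), miR-542-3p (-2.08), miR-5099 (-2.08), miR-450b-3p (-1.99), miR-322-3p (-1.96), miR-450a-5p (-1.88), miR-17-3p (-1.80), miR-351-5p (-1.69), miR-17-5p (-1.61) and miR-297a-5p (-1.61). Of the 11 arms tested from the miR-322 and miR-503 cluster, these are the 6 that passed this test. The features given are the named ones, 13 of the 20 more positive and 13 of the 16 more negative calls.

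Relative to the step from P6 to P15, which uses the same P15 libraries, the step to 8 weeks was more positive for miR-153-5p (2.69), miR-101a-3p (1.90), miR-29a-3p (1.85), miR-29c-3p (1.71) and miR-221-3p (1.69), and these 5 calls were lost with library size alone, where no feature was more positive in the late step. It was more negative for miR-10a-5p (-3.40), miR-219a-2-3p (-3.19), miR-1188-5p (-2.58), miR-449a-5p (-2.44), miR-219a-5p (-2.34), miR-412-5p (-1.97), miR-322-5p (-1.94), miR-542-3p (-1.94), miR-351-5p (-1.86) and miR-322-3p (-1.76). These are the named features, 5 of the 11 more positive and 10 of the 16 more negative calls.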

How the results depend on the processing

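The age comparison gave 65 features higher and 53 lower. With 1 of the 24 mice dropped at a time there were 58 (without P15 F5) to 69 (without 8-week M6) higher and 47 (without 8-week F4) to 58 (without P15 M6) lower. With library size alone it gave 30 and 105, and by sex 31 and 92 in females and 13 and 56 in males, since the median of all features moved to -0.23. That scaling also gave 25 features more negative in bulk cells than in microglia, and 0 more positive and 66 more negative in the late than in the early step. DESeq2 size factors gave 27 and 31 in males, 25 more negative than in microglia, and 6 and 30 for the late against the early step. The moderated limma test, which has no fold change threshold and so tests a weaker claim, gave 339 and 204 for age, 249 and 181 in females, 259 and 141 in males, 4 and 1 for the sex difference, 270 and 118 against microglia and 214 and 123 for the late against the early step.

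With only the 24 bulk libraries in the fit, 77 features were lower in females and 46 in males. Testing only features with 10 or more counts in 12 or more libraries gave 30 features more negative than in microglia and 6 more positive in the late step. Sample quality weights gave 33 lower in males, summed entries gave 26 higher and 31 lower in males, leaving out P15 F1, F2, F3 and M1 gave 32 lower in females, and leaving out the 5 mice with over 100 CPM of miR-200a-3p gave 11 lower in males. The causes were not tested. edgeR's glmTreat gave 76 and 75 for age and the DESeq2 Wald test 48 and 68. No named feature that was called in the age comparison changed sign in an alternative. Of those not called, miR-34b-5p (-0.36 to 0.33), miR-34c-5p (-0.22 to 0.56) and miR-219a-2-3p (-0.03 to 0.53) changed sign, all 3 with library size alone and miR-34b-5p in others too.

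The replicate numbers name different mice, so the block by replicate number pairs samples that share only a number. With that block and the 24 bulk libraries, 56 features were higher and 74 lower, against 58 and 79 without it, and 65 and 53 in the full fit with no replicate block for the mouse. Same-numbered libraries of both ages had a mean correlation of -0.007 in their deviations from the group means, and 2 of 12 correlated best with their own number. Depth limited features under about 1 CPM, where 3 counts or fewer stood behind a value.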

Other observations

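A few called miRNAs outside the lists were chosen after their values were seen. miR-101a-3p, which targets the polycomb enzyme Ezh2, rose from 1001 ± 332 to 3033 ± 272 normalised CPM in bulk cells (mean ± SD, n = 12 each; log2 fold change 1.66, adjusted p = 2.6e-06) and had a log2 fold change of 1.62 in microglia. It can share reads with near-identical entries of its family, and its call was lost with library size alone (1.18, adjusted p = 0.218). miR-664-3p, from an intron of Rab3gap2, rose from 82.1 to 408 (2.30, adjusted p = 3.14e-18) without overlap of the groups. miR-383-5p rose from 194 to 546 (1.49), a call lost with library size alone (1.01, adjusted p = 1) and with summed entries (1.29, adjusted p = 0.0549). miR-1249-3p rose from 247 to 943 (2.01), with a log2 fold change of 2.76 in females and 1.27 in males, a difference that did not pass the test.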
